A study of Mus musculus with 20 samples.

Results

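The comparison concerns astaxanthin, a red xanthophyll carotenoid, added to a fat-rich diet that also held cholesterol and cholate (CL diet). Its members are the 5 livers labelled as CL diet with astaxanthin (CL + AX) and the 5 livers labelled as CL diet without a supplement (CL), 10 of the 20 livers of the series. Both groups were male C57BL/6J mice, 7 weeks old at the start, kept for 12 weeks on a diet in which fat gave 60% of the calories, with 1.25% cholesterol and 0.5% cholate, and fasted for 2 h. The CL + AX diet also held 0.02% astaxanthin. The other livers served only as context, 5 from mice given 0.02% vitamin E in the CL diet (CL + VE) and 5 from mice on CRF-1 normal chow (NC). Each liver was hybridized to 1 array with 45037 probe sets other than controls, and a gene was read from its brightest probe set, which gave 18194 genes. Values below are log2 signals after quantile normalization, and differences are log2 fold changes of CL + AX over CL with their standard error (SE) from limma.

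The CL diet is used in mice as a model of nonalcoholic steatohepatitis, in which hepatocytes fill with lipid and inflammation and scarring follow. Hepatocytes burn fatty acids in mitochondria and peroxisomes under the control of PPARA, a nuclear receptor that binds DNA together with a retinoid X receptor. They also fold and export most plasma proteins through the endoplasmic reticulum (ER), with chaperones in the ER and heat shock proteins in the cytosol. Carotenoids enter cells through scavenger receptors, and some are cleaved by oxygenases to retinoids. The labelled tissue was checked on 6 hepatocyte genes, which, with Alb and Apoa1 among them, had log2 signals of 13.12 to 13.94 in all 10 arrays.

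Few differences between CL + AX and CL livers exceeded the spread between mice. A single probe set passed an adjusted p of 0.05, or 0.00222% of those tested, and it is assigned to no gene in the annotation used here. Its log2 signals were 7.00, 7.22, 7.41, 7.07 and 7.10 in CL + AX livers, against 6.05, 6.62, 6.55, 6.46 and 6.36 in CL livers. Every CL + AX liver lay above every CL liver, and the probe set was higher by 0.75 (SE 0.11, adjusted p = 0.046). In the CL + VE livers it lay at 6.64 to 6.86 and in the NC livers at 7.09 to 7.38. The call was lost when any 1 of the 10 arrays was left out other than CL replicate 2, with adjusted p values up to 0.249 (without CL + AX replicate 2). It was also lost with median centring (adjusted p = 0.0716), without scaling (0.438) and with only the 10 arrays compared (0.201). The t-test that the study's methods name lost it too (0.583), as did limma with the replicate number as a block (0.116).

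No gene passed the adjusted p, and the smallest over genes was 0.177. At an unadjusted p under 0.05, 733 genes were higher (4.03% of 18194) and 731 were lower (4.02%) in CL + AX livers. Among the 11398 genes at or above the median signal these shares were 5.14% and 5.04%. The groups did not overlap for 174 genes that were higher (0.956%) and 183 that were lower (1.01%). For comparison, 2183 genes (12%) rose and 2048 (11.3%) fell in CL livers relative to NC livers at the adjusted p, and no gene passed between CL + VE and CL livers. The 3'/5' log2 ratio of the Dap control probe sets was 1.12 to 1.45 in CL arrays and 2.97 to 3.39 in NC arrays, and its part in the differences between CL and NC livers was not tested.

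After quantile normalization, the arrays bounded most differences from both sides for genes at or above the median signal. Among the 11398 brighter genes, the 95% interval of the log2 fold change lay inside -1 to 1 for 10603 (93%) and inside -0.5 to 0.5 for 7064 (62%). The median distance from the estimate to either bound was 0.28, and 28 of these genes had a fold change beyond 1 or -1. These intervals leave out the choice of scaling, under which the median gene moved to 0.18 without scaling and to -0.09 with median centring. The number of arrays also limits this precision.

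The direction of the counts followed the scaling between arrays. The median deposited signal was 26.5, 27.7, 26.8, 26.4 and 27.7 in CL + AX arrays, against 19.4, 23.4, 21.2, 24.8 and 23.4 in CL arrays. The groups did not overlap (exact permutation test, two-sided, p = 0.00794, the smallest that 5 arrays against 5 allow, and adjusted p = 0.0476 over 6 array readouts). The 3'/5' ratios of Gapdh and Actb, signs of RNA integrity, gave exact permutation p values of 0.405 and 0.714. In CL + VE arrays the log2 ratio of Actb was 1.323 to 1.515, against 1.014 to 1.249 in CL and 1.07 to 1.235 in CL + AX arrays. The median deposited signal of CL + VE arrays was 17.0 to 20.7. The part of both readouts in the CL + VE values given below was not tested. Quantile normalization gave 1622 probe sets that were higher and 1622 that were lower at that unadjusted p (3.6% each). Without scaling the split was 3229 higher and 314 lower, with the median gene at 0.18, and with each array centred on its median it was 815 higher and 3928 lower, with the median gene at -0.09. Each list median below has the median gene subtracted. The value with median centring, which is then the same as without scaling, is given where it moved by over 1.5 times or changed sign. The part of the array level in the results was not tested.

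**Figure D1:**
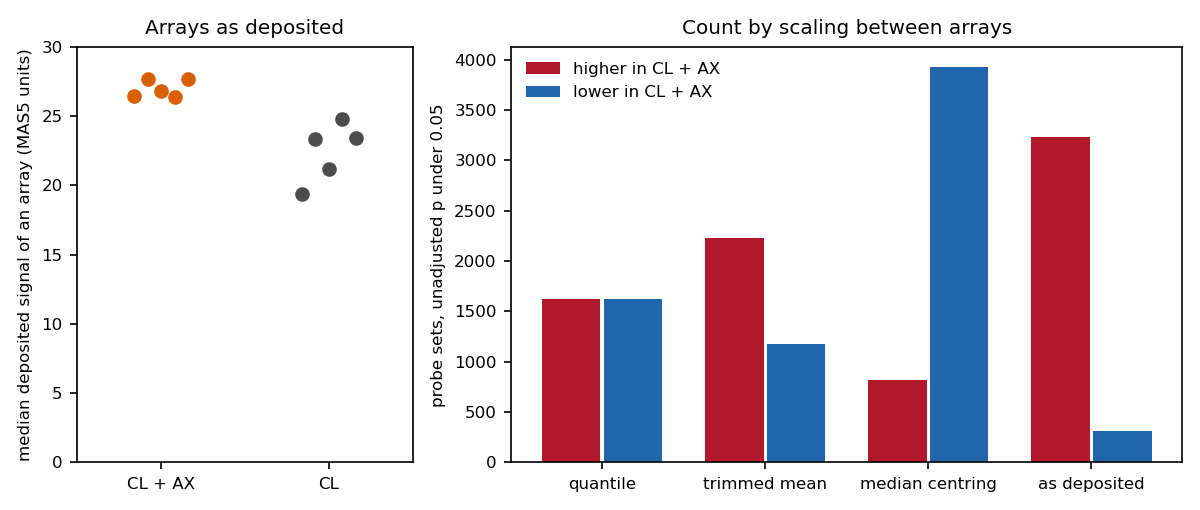
Left, median deposited MAS5 signal of each array in the CL + AX and CL groups (points, 5 arrays each). Right, number of probe sets at an unadjusted p under 0.05 that were higher (red) or lower (blue) in CL + AX under 4 scalings; the split is even at 1622 and 1622 with quantile normalization and 815 against 3928 with median centring.

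The gene with the smallest p value was higher in CL + AX livers. Nrd1, a zinc metallopeptidase, had 8.52, 8.56, 8.52, 8.38 and 8.44 in CL + AX livers, against 7.98, 8.24, 8.11, 8.10 and 8.15 in CL livers, a difference of 0.37 (SE 0.06, adjusted p = 0.177). Arcn1, the delta subunit of the COPI vesicle coat, had 9.95, 10.08, 10.05, 10.13 and 10.10 in CL + AX livers, against 9.64, 9.54, 9.77, 9.79 and 9.79 in CL livers. Both genes separated the groups completely, and both were also higher in CL + VE than in CL livers, by 0.29 and 0.19. Map1lc3a, a protein of autophagosome membranes, had 11.11, 10.94, 10.88, 10.95 and 10.82 in CL + AX livers, against 10.62, 10.74, 10.56, 10.53 and 10.69 in CL livers. Osgin1, an oxidative stress response gene, had 11.10, 11.02, 10.71, 10.54 and 10.69 in CL + AX livers, against 10.29, 10.43, 9.90, 9.76 and 9.93 in CL livers. The groups did not overlap for either gene, and Osgin1 differed by 0.75 (SE 0.19, adjusted p = 0.315) in CL + AX and by -0.03 (SE 0.19) in CL + VE livers. Other genes with small p values were Zmat2 with 0.43 and Sf3b2 with 0.42, both of the splicing machinery, Rapgef1, a guanine nucleotide exchange factor, with 0.41, Odc1, the rate-limiting enzyme of polyamine synthesis, with 0.37, and Nap1l1, a histone chaperone, with 0.76 (SE 0.18).

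Among the genes that were lower, Slc25a13, the mitochondrial aspartate-glutamate carrier, had 10.26, 10.31, 10.28, 10.32 and 10.18 in CL + AX livers, against 10.74, 10.48, 10.84, 10.67 and 10.60 in CL livers. Rab30, a small GTPase of the Golgi, had 8.21, 7.95, 8.27, 8.29 and 8.23 in CL + AX livers, against 8.94, 8.78, 8.82, 8.81 and 8.69 in CL livers. Plpp3, a phosphatase of bioactive lipid phosphates, had 10.75, 11.02, 11.10, 11.26 and 11.23 in CL + AX livers, against 11.67, 11.29, 11.50, 11.66 and 11.42 in CL livers. All 3 separated the groups, with differences of -0.40, -0.62 and -0.44 and the same adjusted p of 0.254. The mitochondrial genes below, named after their values were seen, also separated the groups. Slc25a5, an ADP/ATP carrier, differed by -0.22 (SE 0.05), Acad9, an assembly factor of complex I, by -0.43 (SE 0.10) and Bckdhb, a subunit of the branched-chain keto acid dehydrogenase, by -0.42 (SE 0.10). Pcf11, a factor of transcript cleavage, differed by -0.65 (SE 0.14) and Top1, DNA topoisomerase I, by -0.41 (SE 0.09).

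**Figure D2:**
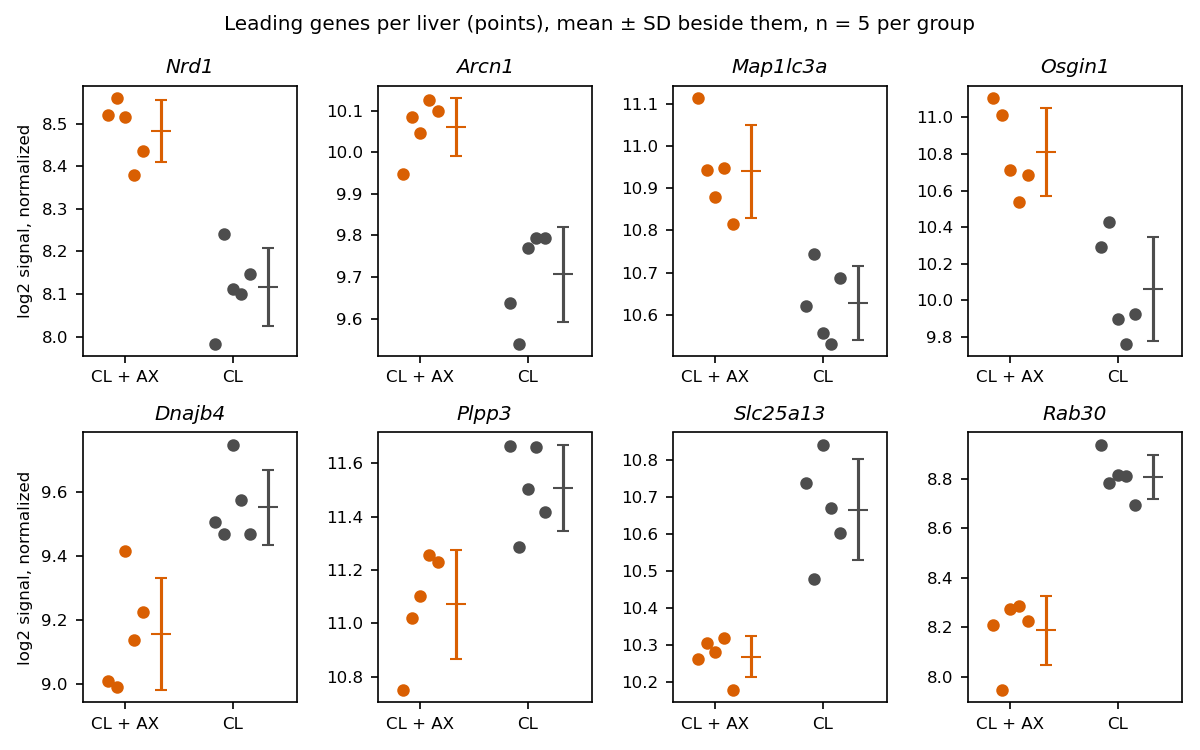
Normalized log2 signal of 8 genes in each liver (points), CL + AX left of CL, with the mean and SD of 5 livers beside the points. The groups do not overlap in any of the 8 panels, and the differences run between -0.62 for Rab30 and 0.75 for Osgin1.

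Several of the larger differences belonged to genes that varied between mice. Noct, a rhythmic gene of the deadenylase family, had 6.20, 6.22, 6.94, 7.50 and 6.45 in CL + AX livers, against 6.67, 8.16, 8.07, 8.47 and 7.48 in CL livers, a difference of -1.11 (SE 0.29, adjusted p = 0.32). Slc22a7, a transporter of organic anions, had 5.91, 5.57, 6.34, 7.04 and 6.37 in CL + AX livers, against 8.36, 6.95, 7.64, 7.23 and 7.00 in CL livers, a difference of -1.19 (SE 0.36). In both genes the groups overlapped, and the highest CL + AX liver, replicate 4, lay among the CL livers. Thrsp, a regulator of lipid synthesis, differed by -1.08 (SE 0.38), Mfsd2a, a carrier of lysophospholipids, by -0.79 (SE 0.20) and Adamtsl2, a matrix glycoprotein, by 0.85 (SE 0.26). Igha, the immunoglobulin A heavy chain, had 7.72, 7.19, 6.46, 7.02 and 7.39 in CL + AX livers, against 6.29, 5.78, 6.61, 5.55 and 5.41 in CL livers. Only CL replicate 3 reached into the CL + AX range, and the difference was 1.23 (SE 0.32, adjusted p = 0.32).

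Heat shock proteins and their co-chaperones were lower on balance. Of 30 genes, 6 were lower and none was higher at an unadjusted p under 0.05, 20% of the list against 4.02% of all genes and 5.04% of the brighter genes that make up most of the lists, and none passed the adjusted p. The median was -0.13 relative to all genes and ran between -0.21 and -0.09 over the alternatives. Per liver, the list's median, with each gene centred on its mean over the 20 arrays, overlapped between the groups. It ran from -0.28 to 0.09 in CL + AX livers, against -0.32 to 0.20 in CL livers, and replicate 5 was highest in each group. Dnaja1, a cytosolic co-chaperone of HSP70, had 10.79, 10.87, 10.85, 11.10 and 11.49 in CL + AX livers, against 11.36, 11.54, 11.35, 11.68 and 11.73 in CL livers. Only CL + AX replicate 5 reached the CL range, and the difference was -0.51 (SE 0.12, adjusted p = 0.291). Dnajb4, a related co-chaperone, had 9.01, 8.99, 9.42, 9.14 and 9.22 in CL + AX livers, against 9.51, 9.47, 9.75, 9.57 and 9.47 in CL livers. Hspa4, a nucleotide exchange factor of HSP70, had 9.24, 9.37, 9.27, 9.37 and 9.33 in CL + AX livers, against 9.46, 9.57, 9.53, 9.64 and 9.52 in CL livers. The groups did not overlap for Dnajb4, which differed by -0.40 (SE 0.08), or Hspa4, which differed by -0.22 (SE 0.06). The other 3 were Ahsa2, an HSP90 activator homologue, with -0.33, and Hspb8, a small heat shock protein, and Hspe1, the mitochondrial HSP10, with -0.23 and -0.12, the last pair named after their values were seen. The inducible Hspa1a and Hspa1b, near-identical copies whose signals can mix, differed by -0.80 and -0.65 with intervals that crossed 0. In CL livers relative to NC livers, 14 of the 30 genes fell and none rose at the adjusted p, against 11.3% and 12% of all genes. The difference in the Dap ratio between CL and NC arrays, given above, holds here too, and its part was not tested. The list median in CL + VE over CL was -0.05. Both comparisons share the CL arrays with that of CL + AX over CL.

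Heat shock factor binds inverted repeats of GAA, and the promoters of Dnaja1 and Hspe1 are shown because they are the genes, of the 6 that were lower, whose window held such a repeat. The sequences are the 250 bases before the RefSeq transcription start on GRCm38.p6, from chr4:40722218-40722467 and chr1:55087898-55088147, both on the plus strand. Capitals mark matches to GAANNTTC or TTCNNGAA, each of which reads the same on both strands.
Dnaja1: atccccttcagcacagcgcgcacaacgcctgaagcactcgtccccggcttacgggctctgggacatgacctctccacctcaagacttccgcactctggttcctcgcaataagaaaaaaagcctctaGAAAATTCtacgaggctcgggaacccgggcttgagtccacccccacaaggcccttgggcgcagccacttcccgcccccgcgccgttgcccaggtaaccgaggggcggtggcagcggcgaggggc
Hspe1: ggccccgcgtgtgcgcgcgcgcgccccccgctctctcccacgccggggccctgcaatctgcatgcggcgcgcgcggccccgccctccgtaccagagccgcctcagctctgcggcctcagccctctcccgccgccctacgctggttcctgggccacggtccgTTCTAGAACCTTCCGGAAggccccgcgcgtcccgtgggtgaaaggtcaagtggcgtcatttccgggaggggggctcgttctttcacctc
The window of Dnaja1 held 1 match and that of Hspe1 held 3 overlapping ones. Such a match stood in 12.9% of 27025 promoters and in 8 of the 26 list members with a promoter sequence. A longer form with 3 alternating repeats, GAA, TTC and GAA or TTC, GAA and TTC, each spaced by NN, stood in 0.4% of all promoters and in 2 of the 26, Hspe1 and Dnajb6. A match is a description of the letters in this window.

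Clock genes were also lower on balance. Of 21 genes, 4 were lower (19%, against 4.02% of all genes) and 1 was higher (4.76%, against 4.03%) at an unadjusted p under 0.05. Their median was -0.20 and ran between -0.27 and -0.15 over the alternatives. Per liver, the list's median, centred in the same way, ran from -0.57 to -0.08 in CL + AX livers, against -0.13 to 0.17 in CL livers. Dbp, a clock output transcription factor, had 5.22, 6.41, 6.24, 6.09 and 6.55 in CL + AX livers, against 8.12, 6.53, 7.19, 6.33 and 7.53 in CL livers, a difference of -1.04 (SE 0.39). Per2, a core repressor of the clock, had 4.36, 4.18, 5.14, 5.47 and 6.00 in CL + AX livers, against 5.16, 5.63, 5.65, 6.22 and 6.53 in CL livers, a difference of -0.81 (SE 0.31). The groups overlapped in both genes. Per2 rose with replicate number in CL livers and mostly so in CL + AX livers, and what the numbers mark was not tested. Rora, an activator of Arntl, had 9.42, 9.28, 9.18, 9.29 and 9.30 in CL + AX livers, against 9.54, 9.57, 9.51, 9.45 and 9.42 in CL livers, a difference of -0.20 (SE 0.07). Nr1d2, a repressor of Arntl, differed by -0.27 (SE 0.10), and Usp2, a clock-controlled deubiquitinase, by -0.47 (SE 0.25, interval -0.98 to 0.05). Nfil3, a repressor that competes with Dbp for its sites, was higher, by 0.35 (SE 0.16). Usp2 and Nfil3 were named after their values were seen. The hour at which each liver was taken is not given in the sources used here, and its part in these values was not tested.

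**Figure D3:**
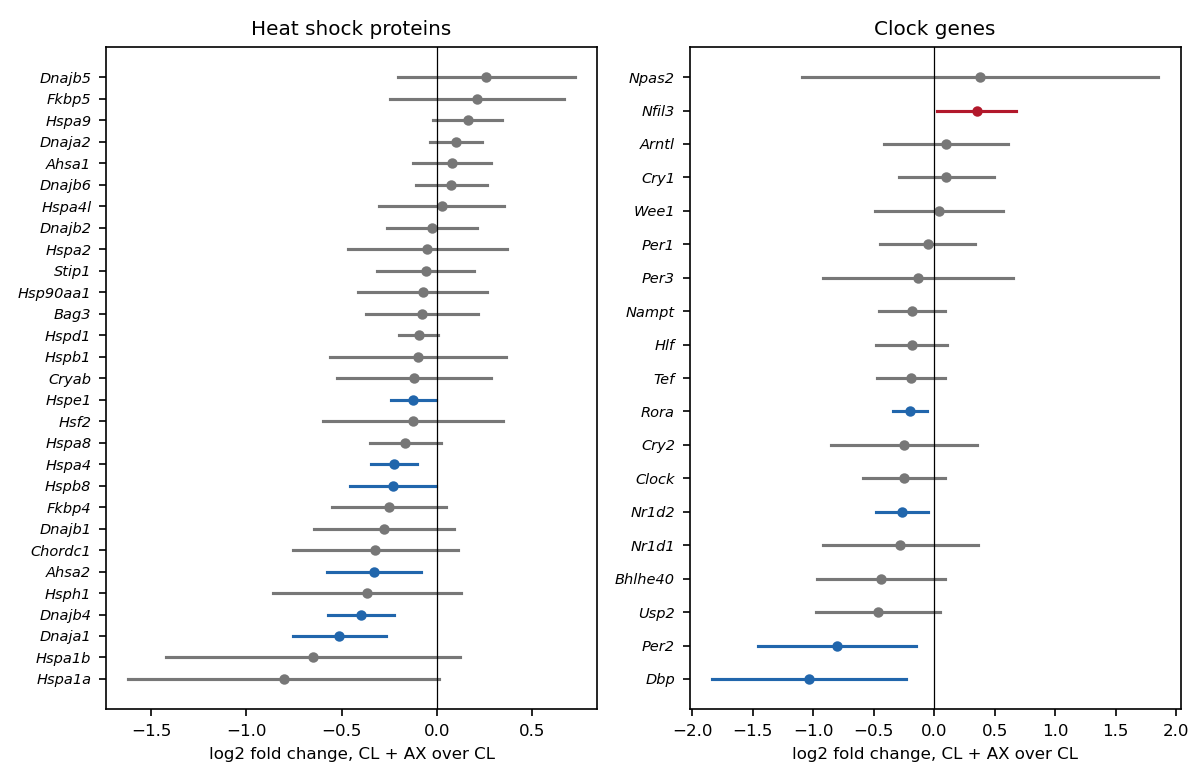
Log2 fold change of CL + AX over CL (point) with its 95% interval (line) for heat shock genes (left) and clock genes (right) at or above the median signal, from 5 livers a group. Blue and red mark intervals below and above 0; 6 heat shock genes are blue and none is red, and 4 clock genes are blue and 1 is red.

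PPARA and its partners came next, since the receptor stands at the centre of fatty acid oxidation. Ppara had 10.01, 10.08, 10.003, 10.23 and 10.63 in CL + AX livers, against 10.60, 10.14, 10.32, 10.67 and 10.60 in CL livers. The groups overlapped, with a difference of -0.28 (SE 0.10, interval -0.49 to -0.06, adjusted p = 0.563), beside -0.26 (SE 0.10) in CL + VE over CL. It was the only gene of 14 receptors and coactivators with an unadjusted p under 0.05 (7.14% lower, against 4.02% of all genes). The median of the 14 was -0.06 (-0.11 with median centring). Pparg, the adipogenic receptor, differed by -0.51 (SE 0.28), Ppard, the broadly expressed one, by -0.32 (SE 0.22), and Rxra, the partner receptor, by 0.12 (SE 0.07; -0.05 with median centring). Ppargc1a, a coactivator of oxidative genes, differed by 0.06 (SE 0.27), and Lpin1, a phosphatidate phosphatase and coactivator, by -0.33 (SE 0.43).

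Of 20 genes of mitochondrial fatty acid oxidation, 2 were lower (10%, against 4.02% of all genes) and none was higher at an unadjusted p under 0.05, with a median of -0.06 (-0.15 with median centring). Etfa, a subunit of the electron transfer flavoprotein, had 11.58, 11.72, 11.70, 11.67 and 11.68 in CL + AX livers, against 11.91, 11.79, 11.88, 11.82 and 11.81 in CL livers, and the groups did not overlap (-0.17, SE 0.06). Eci1, an enoyl-CoA isomerase, differed by -0.21 (SE 0.10), and Acads, the short-chain acyl-CoA dehydrogenase, by -0.12 (SE 0.06) without overlap. Of 20 peroxisomal and microsomal genes, 2 were lower (10%, against 4.02% of all genes) and none was higher. They were Abcd3, a fatty acid importer of peroxisomes, with -0.13 (SE 0.05) and Hsd17b4, the bifunctional enzyme of peroxisomal oxidation, with -0.14 (SE 0.07). The median of the 20 was -0.01 (-0.09 with median centring) and changed sign between alternatives. Cyp4a14, an omega-hydroxylase strongly induced through PPARA, had 13.27, 13.23, 13.21, 13.07 and 13.11 in CL + AX livers, against 12.41, 13.16, 12.86, 13.22 and 13.19 in CL livers, a difference of 0.21 (SE 0.11). The groups overlapped, and CL replicate 1 was the lowest of the 10 livers.

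The genes that the study measured by qPCR or assigned to PPARA were chosen on these samples and are no independent evidence of a direction. Akt2, a kinase of insulin signalling, had 8.46, 8.24, 8.43, 8.34 and 8.33 in CL + AX livers, against 8.20, 8.14, 8.25, 8.13 and 8.23 in CL livers, a difference of 0.17 (SE 0.07, interval 0.03 to 0.31), with CL + AX replicate 2 just inside the CL range. Cpt1a, the entry enzyme of mitochondrial oxidation, differed by -0.14 (SE 0.11, interval -0.36 to 0.08), and by 0.08 when all its probe sets were averaged. Scd1, the stearoyl-CoA desaturase, differed by -0.02 (SE 0.06). Of 29 genes of the study's PPARA set, 10 were lower and 1 was higher at an unadjusted p under 0.05, or 34.5% and 3.45% against 4.02% and 4.03% of all genes, with a median of -0.13. The set's lower genes included Pbld1 with -0.33, Adtrp, a hydrolase of fatty acid esters, with -0.32, Hsd17b10, a mitochondrial dehydrogenase, with -0.39 and Gnmt, a methyltransferase, with -0.21.

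Genes that handle carotenoids and retinoids gave 3 lower (10.7%, against 4.02% of all genes) and none higher of 28 at an unadjusted p under 0.05, with a median of -0.04 (-0.12 with median centring). The uptake receptors Scarb1 and Cd36 differed by 0.06 (SE 0.09; -0.12 with median centring) and -0.26 (SE 0.24). The cleavage enzymes Bco1 and Bco2 differed by 0.11 (SE 0.14, interval -0.17 to 0.40) and -0.19 (SE 0.13, interval -0.46 to 0.08). Rdh16, a retinol dehydrogenase, had 8.31, 8.43, 8.95, 8.61 and 8.74 in CL + AX livers, against 8.77, 8.94, 9.37, 8.99 and 8.86 in CL livers, a difference of -0.38 (SE 0.13) with overlapping groups. Cyp26b1, which degrades retinoic acid, had 6.76, 5.63, 5.67, 5.27 and 5.58 in CL + AX livers, against 6.42, 6.24, 6.27, 6.35 and 6.11 in CL livers. Replicate 1 stood apart above all CL livers and the other 4 CL + AX livers lay below them, for a difference of -0.50 (SE 0.22). Aldh1a1, a retinal dehydrogenase, differed by -0.18 (SE 0.08), Aldh1a7, a relative of it, by -0.26 (SE 0.15) and Lrat, which esterifies retinol, by -0.42 (SE 0.20). Cyp26a1, the other main retinoic acid hydroxylase of liver, differed by 0.65 (SE 0.37). Rbp4, the plasma carrier of retinol, differed by -0.03 (interval -0.12 to 0.06).

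**Figure D4:**
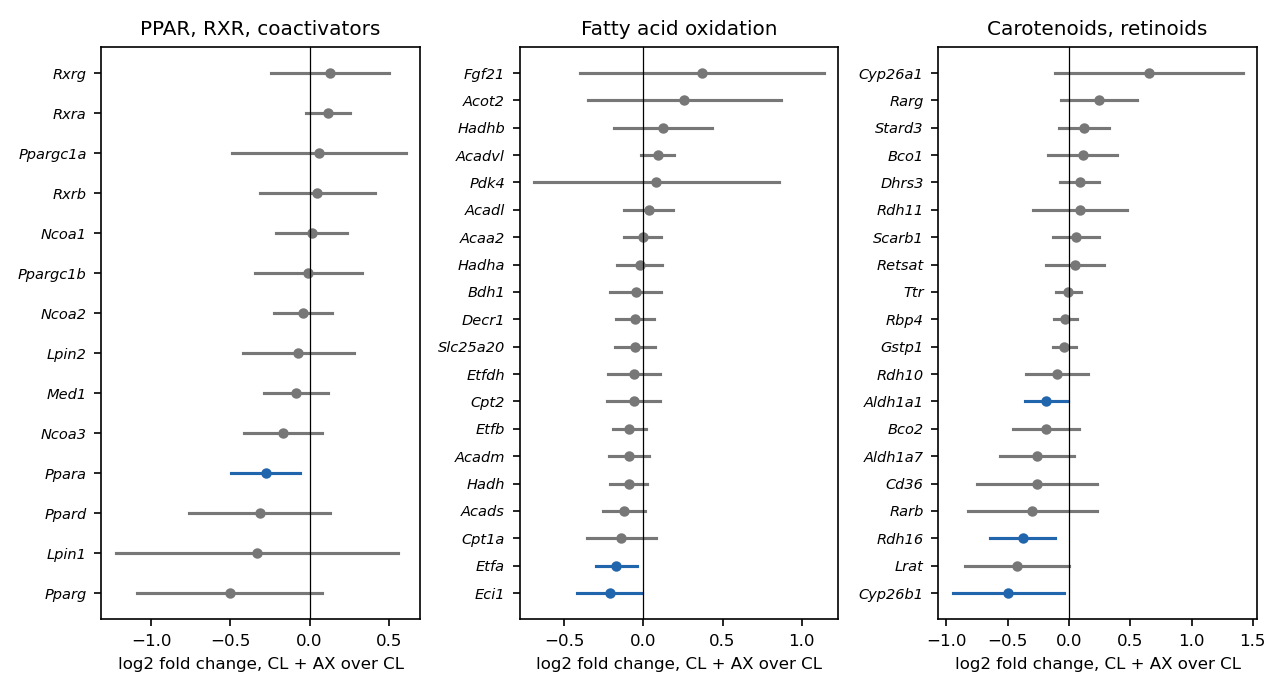
Log2 fold change of CL + AX over CL (point) with its 95% interval (line) for PPAR and RXR genes, fatty acid oxidation genes and carotenoid and retinoid genes at or above the median signal, from 5 livers a group. Blue marks intervals below 0: Ppara; Etfa and Eci1; Rdh16, Cyp26b1 and Aldh1a1.

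Genes of the secretory pathway gave more higher than lower values. Of 33 genes of the COPI and COPII coats and of other secretory factors, 7 were higher and 1 was lower at an unadjusted p under 0.05. These shares were 21.2% and 3.03%, against 4.03% and 4.02% of all genes, but the list median of 0.01 turned to -0.04 with median centring. Beside Arcn1 the higher genes included Srpr, the receptor of the signal recognition particle and no coat subunit, with 0.25 (SE 0.09). They also included Arfgap2, which acts on the COPI GTPase, with 0.20 (SE 0.07), and Copz1, a COPI subunit, with 0.19 (SE 0.07, and -0.09 over all its probe sets). Copb1, another COPI subunit, named after its values were seen, differed by -0.16 (SE 0.07). Of 36 ER chaperones and degradation factors, 6 were higher (16.7%, against 4.03% of all genes) and 1 was lower (2.78%), with a median of 0.06 that ran between 0.00 and 0.12. Wfs1, an ER membrane protein of calcium balance, had 7.13, 6.99, 6.98, 7.10 and 6.64 in CL + AX livers, against 6.75, 6.56, 6.43, 6.68 and 6.32 in CL livers, a difference of 0.42 (SE 0.14), and only CL + AX replicate 5 reached the CL range. Ero1b, an ER oxidase, differed by 0.27 (SE 0.12), Ssr3, a subunit of the translocon-associated complex, by 0.18 (SE 0.07) and Canx, the chaperone calnexin, by 0.17 (SE 0.07); with median centring Ssr3 and Canx lay at -0.01 and -0.03. Herpud1, a stress-induced factor of ER-associated degradation, named after its values were seen, had 10.71, 10.08, 11.49, 11.89 and 11.91 in CL + AX livers, against 11.24, 11.67, 11.71, 12.19 and 12.03 in CL livers, a difference of -0.55 (SE 0.26) with overlapping groups. Atp6v1d, a subunit of the lysosomal proton pump, differed by 0.33 (SE 0.09) and Psmb1, a proteasome subunit, by -0.21 (SE 0.06; 0.05 over all its probe sets), each without overlap.

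Of 82 cytosolic ribosomal protein genes listed, 46 were read, of which 6 were higher (13%, against 4.03% of all genes) and none was lower, with a median of 0.05 that turned to -0.04 with median centring. Of 35 translation initiation factors and their regulators, 5 were higher (14.3%) and 1 was lower (2.86%), with a median of 0.02 that turned to -0.03 with median centring. Eif4ebp1, a repressor of cap-dependent translation, had 10.46, 10.39, 10.34, 10.43 and 10.28 in CL + AX livers, against 10.11, 10.18, 10.01, 10.03 and 10.08 in CL livers, without overlap (0.30, SE 0.09). Of 27 genes of mTOR and insulin signalling, 3 were higher and 3 were lower (11.1% each, with a median of -0.01, or -0.05 with median centring), among them Gsk3a, a glycogen synthase kinase, with 0.25 (SE 0.09) and Pik3r1, a regulatory subunit of PI3K, with -0.39 (SE 0.15). Slc7a5, an amino acid transporter, had 5.54, 2.89, 3.72, 1.51 and 4.85 in CL + AX livers, against 5.41, 4.79, 5.05, 5.06 and 5.44 in CL livers, and the CL + AX livers spread far more widely. Of 37 complex I genes, 1 was higher (2.7%) and 3 were lower (8.11%), with a median of -0.07 (-0.15 with median centring). Ndufa2, an accessory subunit, differed by 0.19 (SE 0.06) and Ndufab1, its acyl carrier subunit, by -0.16 (SE 0.06). Of 72 mitochondrial ribosomal proteins, 5 were higher (6.94%) and 6 were lower (8.33%), with a median of -0.02 (-0.08 with median centring), from Mrpl33 with 0.52 (SE 0.14) to Mrpl18 with -0.23 (SE 0.08).

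Of 26 genes of the urea cycle and amino acid catabolism, 4 were lower (15.4%, against 4.02% of all genes) and none was higher, with a median of -0.07 (-0.16 with median centring): Gpt, alanine aminotransferase, with -0.38 (SE 0.12), Gnmt, Otc, the ornithine transcarbamylase, with -0.20 (SE 0.09) and Bhmt, which methylates homocysteine, with -0.17 (SE 0.08). Of 22 zonation genes, 3 were lower (13.6%) and none was higher, with a median of -0.10 (-0.17 with median centring). Lect2, a secreted protein, had 9.02, 9.09, 9.42, 9.84 and 9.71 in CL + AX livers, against 10.37, 9.81, 10.38, 10.14 and 9.88 in CL livers, where only CL + AX replicate 4 reached the CL range, a difference of -0.70 (SE 0.17, adjusted p = 0.315) beside 0.03 (SE 0.17) in CL + VE over CL. The direct difference of CL + AX from CL + VE was -0.73 with an adjusted p of 0.16 in limma. Oat, ornithine aminotransferase, and Rhbg, an ammonium transporter, both pericentral, differed by -0.46 (SE 0.14) and -0.76 (SE 0.24). Cyp8b1, the sterol 12-alpha-hydroxylase, differed by -0.73 (SE 0.28), and Cyp39a1, an oxysterol 7-alpha-hydroxylase, by 0.72 (SE 0.27). Cyp7a1, the rate-limiting enzyme of bile acid synthesis, had 5.51, 6.34, 7.37, 7.995 and 7.55 in CL + AX livers, against 8.82, 5.80, 8.29, 8.79 and 8.30 in CL livers, where replicate 2 lay far below the others, and the interval was -2.17 to 0.08. Of 29 P450 genes of drug metabolism, 1 was higher (3.45%, against 4.03% of all genes) and 2 were lower (6.9%, against 4.02%), shares near those of all genes, with a median of -0.07 (-0.12 with median centring). They were Cyp3a13 with 0.35 (SE 0.13), Cyp2b10, induced through the receptor Nr1i3, with -1.32 (SE 0.53) and Cyp2c54 with -0.66 (SE 0.30). Nr1i3 itself differed by -0.21 (SE 0.10), Arnt, partner of the aryl hydrocarbon receptor, by 0.49 (SE 0.16) without overlap, and Thrb, a thyroid hormone receptor named after its values were seen, by -0.69 (SE 0.29). Elovl2, an elongase, and Pnpla2, the triglyceride lipase, differed by 0.25 (SE 0.09) and 0.38 (SE 0.14), and Dgat2, which makes triglycerides, and Cideb, a lipid droplet protein, by -0.24 (SE 0.07) and -0.14 (SE 0.07).

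Blood and stromal cell markers varied between mice of a group. In bulk liver, fewer cells of a type and less RNA per cell cannot be told apart. Of 12 neutrophil markers, 2 were higher (16.7%, against 4.03% of all genes), none was lower, and the median was 0.68, between 0.34 and 0.88 over the alternatives. Of the 12, 9 lay above 0 and 3 below, down to -0.22, and 6 were at or above the median signal. S100a8, a calcium-binding protein of neutrophils, had 8.59, 8.64, 7.31, 9.67 and 7.32 in CL + AX livers, against 5.34, 8.64, 5.86, 8.53 and 6.37 in CL livers, a difference of 1.36 (SE 0.61). CL replicates 2 and 4 lay within the CL + AX range. S100a9, its partner, differed by 1.05 (SE 0.54), Ngp, a granule protein, by 0.95 (SE 0.46) and Mpo, myeloperoxidase, named after its values were seen and dim in both groups, by 0.84 (SE 0.34). The median of the neutrophil markers, each centred on its mean over the 20 arrays, ran from -0.10 to 1.28 in CL + AX livers, against -0.79 to 0.61 in CL livers; their part in other results was not tested. Of 29 endothelial markers, 3 were lower (10.3%, against 4.02% of all genes) and none was higher, with a median of -0.19 that ran between -0.25 and -0.15. They included Gpr182, a scavenging chemokine receptor of sinusoids, with -0.38 (SE 0.13), while 7 of the 29 lay above 0, up to 1.29 for a gene below the median signal. Of 46 stellate cell and matrix genes, 25 lay above 0 and 21 below, with a median of 0.03 that turned to -0.0023 with median centring. At an unadjusted p under 0.05, 3 were lower (6.52%, against 5.04% of the brighter genes) and none was higher, Timp3, an inhibitor of metalloproteinases, with -0.60 (SE 0.17), Smad7, an inhibitor of TGF-beta signalling, with -0.54 (SE 0.19) and Ccn2, a growth factor of connective tissue, with -0.68 (SE 0.26). Of 23 macrophage and Kupffer cell markers, 13 lay above 0 and 10 below. At that p none was higher and 1 was lower (4.35%, against 4.02% of all genes). The median of 0.08 turned to -0.00084 with median centring. The highest of the 23 was Cd14, a receptor for endotoxin, with 0.71 (SE 0.37, interval -0.07 to 1.49). Stat3, a transcription factor of the acute phase, had 9.51, 9.37, 9.68, 9.58 and 9.62 in CL + AX livers, against 9.19, 9.23, 9.43, 9.06 and 8.91 in CL livers, a difference of 0.39 (SE 0.11) with a narrow overlap. Hamp2, a hepcidin gene, had 5.06, 7.31, 4.57, 7.40 and 7.27 in CL + AX livers, against 9.64, 7.35, 9.25, 5.71 and 8.79 in CL livers, a difference of -1.82 (SE 0.67) with overlapping groups. Igfbp1 and Igfbp3, carriers of insulin-like growth factors, differed by 0.51 (SE 0.23) and -0.54 (SE 0.18), and Ppp1r3b, a glycogen-targeting subunit, by -0.59 (SE 0.23). Prdx3, a mitochondrial peroxiredoxin, differed by -0.17 (SE 0.07).

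**Figure D5:**
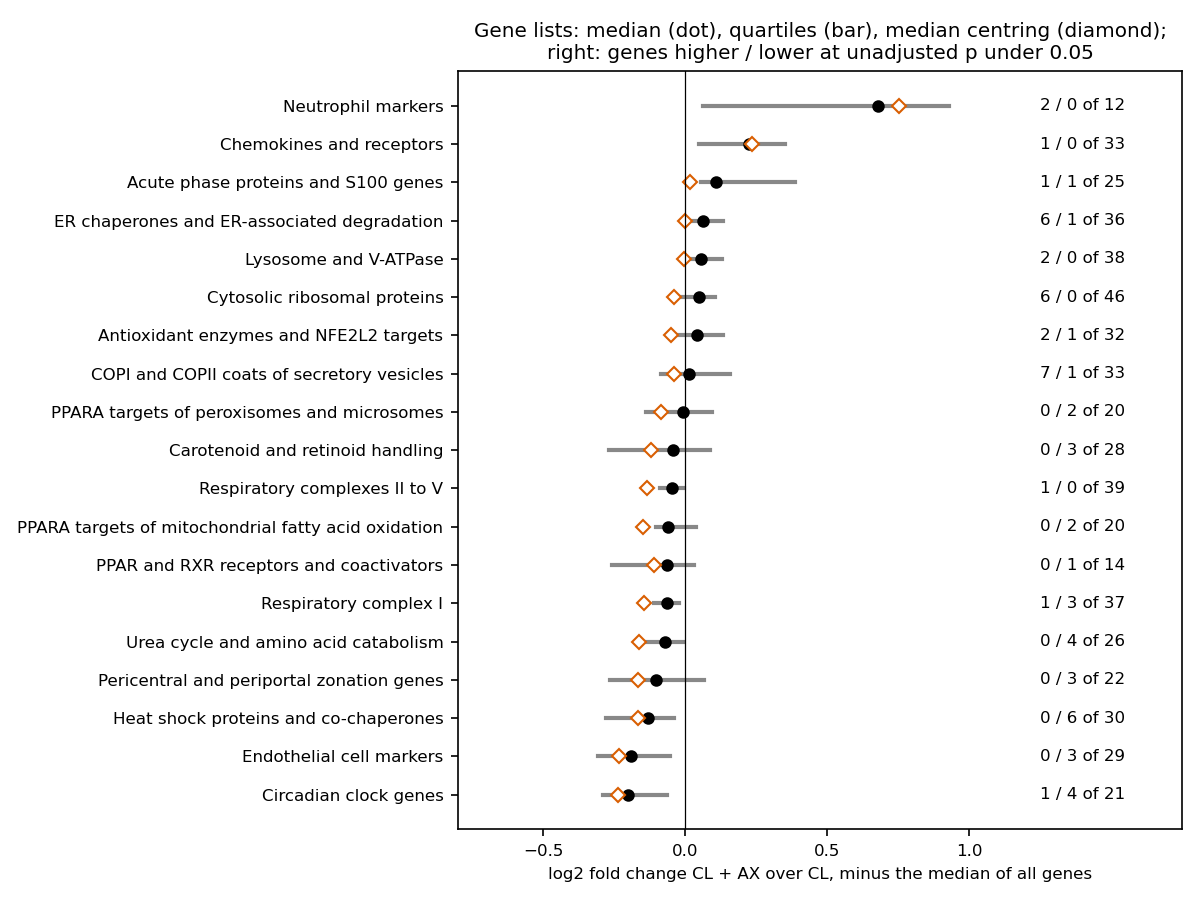
Median (dot) and quartiles (bar) of the log2 fold changes of CL + AX over CL in 19 gene lists, minus the median of all genes, with the median after median centring (diamond); the numbers at the right count genes that were higher and lower at that unadjusted p. Neutrophil markers, of which 6 of 12 are at or above the median signal, lie highest with 0.68. Clock genes lie lowest with -0.20, and some lists near 0 change side between dot and diamond.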

How the data were processed

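Livers of 20 mice were profiled on Affymetrix mouse genome arrays with 3' probe sets, 1 array per mouse and 5 per group, and the labels gave the groups. The authors computed the deposited intensity values with MAS5, which summarises the probes of a probe set into 1 linear signal, and the table was not scaled between arrays. After removal of 64 control probe sets, signals were log2 transformed and quantile normalized, and 45037 probe sets were then fitted together (limma 3.58.1, R 4.3.3), with a mean for each of the 4 groups, 16 residual degrees of freedom and a variance prior that follows the mean signal. All p values of genes come from this moderated test, and adjustment followed Benjamini and Hochberg across the whole table. Quantile normalization assumes the same distribution of signals in every array. The annotation named 1 gene for 34945 probe sets, several for 932 and none for 9160. Depth has no count on arrays, and their number limits the precision. That the mice of a group are separate animals comes from the study's methods. The members and the 56 gene lists were chosen with earlier results of these data known. Named genes were those past the adjusted p, the 12 smallest p values and 6 largest changes in each direction, up to 4 genes of each list and all genes of the PPAR, carotenoid and study lists, of which the text gives a part. The fit was tested on simulated data. Alternatives were other scalings, only the 10 arrays compared, a filter on dim probe sets, a pseudocount of 16, array weights, the methods' t-test, a replicate block, all probe sets of a gene and leaving out each array. Promoters came from RefSeq (GRCm38.p6).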

Additional observations from a re-analysis of the deposited data

Results flagged for a closer look

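Of 238 sets of 5 livers, 1 for each gene named and each group, 9 held a liver whose distance from its neighbour passed Dixon's limit of 0.71 of the range. Chance passes this limit in about 1 of 20 groups. In CL + AX livers, replicate 1 was lowest for Bhmt with 13.13 (next 13.60) and for Oat with 11.78 (next 12.23), and highest for Cyp26b1 with 6.76 (next 5.67). Replicate 2 was lowest for Rab30 with 7.95 (next 8.21) and for Thrb with 2.98 (next 4.03), and replicate 4 was highest for Cideb with 11.32 (next 11.19). In CL livers, replicate 1 was lowest for Cyp39a1 with 8.32 (next 9.09) and for Ccn2 with 7.40 (next 8.52), and replicate 2 was lowest for Cyp7a1 with 5.80 (next 8.29). No gene named here passed an adjusted p of 0.05 in limma between CL + AX and CL + VE livers.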

How the results depend on the processing

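The count of 1 probe set past the adjusted p became 0 without scaling, with median centring, with the methods' t-test and with the replicate block, and 0 to 1 when an array was left out. The probe set of the report kept its call in 4 of 9 settings and in 1 of 10 that left out an array, with a log2 fold change of 0.63 to 0.90 and adjusted p values of 0.0138 to 0.583. With only the 10 arrays compared the 1 call was another probe set, of Gstm1 (0.71, adjusted p = 0.00866), a glutathione transferase with close paralogs, and without CL + AX replicate 3 it was one of Ighm (1.86, adjusted p = 0.0118). The counts at an unadjusted p under 0.05, 1622 higher and 1622 lower, became 3229 and 314 without scaling and 815 and 3928 with median centring, and 1356 to 1824 and 1301 to 1915 when an array was left out. The methods' t-test gave 1549 and 1712. No label says whether the same replicate number in CL + AX and CL stands for anything shared. The deviations of same-numbered CL + AX and CL arrays correlated by 0.03 to 0.38, with 4 of 5 pairs over 0.1. Of the 5 CL + AX arrays, 3 correlated best with the CL array of their own number. The replicate block gave 1678 higher and 1701 lower, and what the numbers mark was not tested. The methods' t-test, the filter on dim probe sets and the replicate block leave each fold change as it was and could change no sign. With those settings included, 13 of 2378 gene values changed sign. With median centring these were Rxra (-0.0540), Ppargc1a (-0.0509), Scarb1 (-0.12), Ssr3 (-0.0147), Canx (-0.0269) and Gstm1 (-0.0831). Each was read from the brightest probe set of its gene, which need not be the probe set of the Gstm1 call above. Without scaling it was Scd1 (0.00517). Over all probe sets they were Cpt1a (0.0813), Copz1 (-0.0882) and Psmb1 (0.0538). Ppargc1a ran from -0.17 to 0.25 when an array was left out, and was below 0 without CL + AX replicate 1, CL replicate 1 or CL replicate 5. The median of 33 of 56 lists kept its sign in every setting. The cause of these shifts was not tested.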
